A study of Mus musculus with 4 samples.

Results

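Septal cholinergic neurons were represented by 199 nuclei among 48940 nuclei of the mouse lateral septum (LS) that passed the limits on quality. They were chosen by measured counts of unique molecular identifiers (UMIs): at least 1 UMI of Slc5a7 and at least 1 of Chat, 0 of Crhr2 and fewer than 3 each of Dach2 and St18, in nuclei with 200 to 6000 genes, less than 2% mitochondrial UMIs and at least 2000 UMIs. The LS was dissected from male mice of 6 to 8 weeks and its nuclei were sequenced in 4 libraries, of which 2 were from C57J mice (C57BL/6JNifdc), 1 from BALB/c mice and 1 from nude mice on the BALB/c background, which lack T cells. Tissue of several mice was pooled for each library, with separate mice for each of the C57J libraries. C57J 1 was labelled batch 1 and the other libraries batch 2. Nude and BALB/c together are called the BALB/c background below, as the study compared them with C57J, and each alone had 1 library and no replicate. The p-values between backgrounds thus rest on the spread between pools. That spread also holds any difference between nude and BALB/c and, within C57J, between batch 1 and batch 2.

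Cholinergic neurons of the basal forebrain take up choline with the transporter Slc5a7, convert it to acetylcholine with the enzyme Chat and load it into vesicles with Slc18a3. In rodents they arise from ventral progenitors marked by Nkx2-1, keep the transcription factors Lhx8 and Isl1, and carry the neurotrophin receptor Ngfr. They are gathered in the medial septum and diagonal band, which border the LS and send acetylcholine to the hippocampus.

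The nuclei numbered 51, 30, 54 and 64 in the 4 libraries, always given in the order C57J 1, C57J 2, nude, BALB/c, and their 199 barcodes were all distinct. Pairs of libraries shared 29 to 63 barcodes, of which 0 belonged to these nuclei in both. The summed UMIs of the cholinergic nuclei were 616149, 306864, 546997 and 1062122. Their median depth was 11720, 9373, 9212 and 16444 UMIs, against 6841, 5774, 5785 and 10845 UMIs in the other neurons, which are the 38218 neuronal nuclei without a UMI of Slc5a7 or Chat. Depth therefore differed both between the cholinergic nuclei and the rest and between libraries, and BALB/c was the deepest in both classes.

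The values that chose the nuclei are given as a description. The median nucleus held 7, 4, 4 and 8 UMIs of Slc5a7 and 5, 3.5, 4 and 7 UMIs of Chat. Just inside the rule were 13 nuclei with 1 UMI of each gene. Just outside were 1429 nuclei with Slc5a7 and no Chat, 1252 of them at 1 UMI, 276 nuclei with Chat and no Slc5a7, 249 of them at 1 UMI, and 114 nuclei with both genes that the limits on Crhr2, Dach2 or St18 removed. A UMI of Slc5a7, with or without Chat, was found in 1.94% to 5.70% of oligodendrocyte nuclei, which should lack the gene, and in 3.30% to 5.48% of all neurons, cholinergic nuclei included. Both genes together occurred in 0 of 193, 0 of 177, 0 of 56 and 0 of 620 oligodendrocyte nuclei, and the last of these allows a share of up to 0.484% of nuclei with a UMI of both (3 counts, counting error only). The median depth of those oligodendrocyte nuclei was lower, at 2537 to 3863 UMIs. Both genes had UMIs in 6.25%, 9.92%, 5.78% and 17.2% of Crhr2 Dach2 neurons of the LS, at median depths of 7514 to 13936 UMIs. The pair of genes was thus not limited to the nuclei chosen here. Neurons with at least 2 UMIs of Lhx6 held both genes in 4.17%, 7.5%, 4.0% and 5.69%. Since the rule does not use Lhx6, these can include chosen nuclei and do not show the pair outside them.

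The label was checked with 10 markers that the rule did not use. Levels are in CPM, which sets a gene's UMIs against all UMIs of the summed nuclei in a library, and class differences are a description without a test, since the nuclei were chosen by measured genes. Of the 10 markers, 8 were at least 2-fold above the other neurons in every library, whereas 3.65% of 4991 genes outside the rule were, which had at least 10 UMIs in the cholinergic nuclei of every library, a minimum that genes low in these nuclei miss. In this and other lists a gene was counted as above or below only if it had at least 10 UMIs in the 4 libraries together, as 9 of the 10 markers did. Prima1, which anchors acetylcholinesterase in the membrane of neurons (chr12:103196908-103242150, minus strand, GRCm38), was at 281, 362, 298 and 362 CPM, and at 1.27 to 1.72 CPM in other neurons. Ngfr, the p75 neurotrophin receptor (chr11:95568818-95587735, minus strand), was at 51.9, 68.4, 60.3 and 98.9 CPM against 0.464 to 0.827 CPM. Both genes stood 64.3-fold or more above other neurons in each library, and their C57J and BALB/c-background libraries overlapped. Lhx8, a LIM-homeodomain factor needed for cholinergic identity (chr3:154306294-154330659, minus strand), was at 177 to 202 CPM in the 4 libraries and 16.8- to 29.7-fold above other neurons. Isl1, its partner factor, was 2.40- to 2.58-fold above.

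Some markers had few UMIs. Slc18a3, the vesicular transporter, gave 40 UMIs in all 199 nuclei, Gbx1 gave 10 and Tbx20 gave 0. Slc18a3 (chr14:32462438-32464850) lies wholly within Chat (chr14:32408203-32465989) on the same strand, so the counting of reads between them is uncertain, and Slc18a3, although among the 8 markers above, is not independent of the rule. At least 3 of the 10 markers were found in 156 nuclei (78.4%), and none in 11 nuclei. Prima1 was also found in 29.4% of oligodendrocyte nuclei, against 81.4% of cholinergic and 1.02% of other neuronal nuclei.

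Markers of other cells were mostly below or near their level in other neurons. Oligodendrocyte markers summed to 370, 349, 256 and 203 CPM in the cholinergic nuclei, below the 567, 550, 364 and 361 CPM of other neurons, with 0 of 9 at zero. Astrocyte markers summed to 218 to 438 CPM, led by Slc1a2, against 717 to 1172 CPM in other neurons. Microglia markers summed to 69.8, 61.9, 71.3 and 43.3 CPM against 77.5, 81.8, 67.7 and 86.8 CPM, so that nude was above other neurons. Striatal markers, led by Pde10a, summed to 776, 557, 715 and 874 CPM against 934, 721, 670.4 and 864 CPM, above in nude and BALB/c, and 1 of 8, Isl1, was at least 2-fold above in every library. Markers of oligodendrocyte precursors, led by Vcan, summed to 26.1 to 66.8 CPM against 91.9 to 140 CPM. Of 6 vascular markers Flt1, Cldn5 and Vtn were at 0. Markers of LS neurons, led by Trpc4, summed to 556 to 626 CPM against 1670 to 1937 CPM in other neurons. The oligodendrocyte sum was lower in both libraries of the BALB/c background than in both C57J libraries, and its part in the differences between backgrounds below was not tested.

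Genes that make and recycle acetylcholine were above other neurons in part. Of 16 such genes outside the rule, 12 of them with at least 10 UMIs, 5 were at least 2-fold above in every library, namely Slc18a3, Ache, Prima1, Acly and Slc25a1, and 0 were as far below; the first 3 are also among the markers. Acly, which cleaves citrate to supply acetyl-CoA (chr11:100476353-100528000, minus strand), was at 355, 355, 344 and 330.5 CPM, 12.9- to 16.0-fold above other neurons. Slc25a1, which exports that citrate from mitochondria, was 4.58- to 6.04-fold above. Slc44a5, a choline transporter-like protein, was 1.99- to 2.82-fold above, and Ache, which breaks acetylcholine down, 2.23- to 3.09-fold. Slc44a1 and Chka, which every cell uses for choline uptake and phosphorylation, were at 131 and 201 CPM on average, close to the 126 and 214 CPM of other neurons. Slc10a4, a vesicular protein of monoamine and cholinergic neurons, was at 77.9, 35.8, 56.7 and 89.4 CPM against 3.95 to 5.33 CPM.

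Receptors set out a profile of inputs. Of the receptors for acetylcholine itself, Chrm2, the inhibitory muscarinic autoreceptor, was at 722, 886, 547 and 612 CPM, 2.43- to 4.22-fold above other neurons, and Chrna7, a nicotinic subunit, was 2.76- to 3.94-fold above. Chrm3, a muscarinic receptor that excites, was at 40.5 to 89.6 CPM, at most 0.169 times its level in other neurons. Of its 162 UMIs 125 lay in 35 nuclei that form cluster 1 below, and the remaining nuclei were at 17.7 CPM. Among 59 receptors of modulators, 34 of them with at least 10 UMIs, 6 were at least 2-fold above in every library and 5 were as far below. The tachykinin receptors Tacr1 and Tacr3, which bind substance P and neurokinin B, were 9.57- to 17.6-fold and 12.03- to 31.0-fold above. Oprd1, the delta opioid receptor (chr4:132110726-132144486, minus strand), was at 81.1, 97.8, 82.3 and 93.2 CPM, 26.7- to 29.3-fold above, the narrowest range among the 20 genes with the highest ratios. Adra1b, an adrenergic receptor, was 5.96- to 10.8-fold above. Cnr1, the cannabinoid receptor, was 2.22- to 4.05-fold above. The serotonin receptors Htr1f, Htr4 and Htr7 were all below other neurons in each library.

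Ionotropic receptors were mostly below other neurons, with 6 of 41 (35 with at least 10 UMIs) at least 2-fold below in every library and 2 as far above. Gria1, an AMPA receptor subunit, was at 469 to 753 CPM, 0.226 to 0.314 times other neurons, and Grin2a at 0.197 to 0.306 times. Those above were Grin3a, which lowers calcium entry through NMDA receptors, at 2.37- to 3.29-fold, and Grik4, a kainate receptor subunit, at 2.23- to 2.75-fold. Of 56 channel genes that set pacing and excitability, 53 of them with at least 10 UMIs, 3 were at least 2-fold above and 8 at least 2-fold below in every library. Kcnc2, a potassium channel of fast-spiking neurons, was at 1091, 1460, 1101 and 1122 CPM against a mean of 214 CPM in other neurons. Kcnh7, an ERG-type potassium channel, was 2.36- to 3.39-fold above, and Cacna1e, an R-type calcium channel, was 0.207 to 0.323 times other neurons.

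Genes of a second transmitter had UMIs in some nuclei. Nos1, neuronal nitric oxide synthase, had a UMI in 99 of 199 nuclei, and Slc17a8, the vesicular glutamate transporter VGLUT3, in 36, with both in 10 nuclei. After each nucleus was thinned to 2000 UMIs these shares were 22.1% and 4.52%. Nos1 was then found in 2.66% of other neuronal and 1.34% of oligodendrocyte nuclei, and Slc17a8 in 0.343% of other neuronal and 0.0956% of oligodendrocyte nuclei. Gad2, an enzyme that makes GABA, had a UMI in 168 nuclei (84.4%), but in 29.1% after thinning, when oligodendrocyte nuclei had it in 26.9%. For Gad1 the thinned shares were 15.6% and 20.1%, and for Slc32a1, the vesicular GABA transporter, 8.04% and 12.6%. Shares of the 3 GABA genes thus lay near or below those of a cell type that should lack them and were not read as expression.

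The 20 genes with the highest ratios to other neurons also held genes that lie beside each other. The long non-coding RNA Gm29374 (chr1:87142874-87146983) lies 671 bases from Ecel1, a peptidase-like protein (chr1:87147655-87156521), and both are on the minus strand. Gm29374 was 16.5- to 32.2-fold above where Ecel1 was 5.54- to 7.80-fold above. Sfta3-ps and Gm26973, of unknown function, flank Nkx2-1 (chr12:56531958-56536908), from which they are 2530 bases away and overlap it by 1566 bases on the other strand. Nkx2-1 was at 18.3 to 45.6 CPM, 4.57- to 13.3-fold above other neurons.

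Elavl2, an RNA-binding protein that the study used to mark the medial septum, was at 2550, 2464, 2413 and 2871 CPM against 116 to 209 CPM. Insrr, an insulin receptor-related kinase, was at 110, 121, 73.1 and 81.0 CPM against 0.662 to 0.963 CPM. Also among the 20 were Adgrf5, Dysf, Pdzrn3, Ntsr1 and Kctd6, which were 7.66- to 76.8-fold above across genes and libraries. Of the 4991 genes 135 (2.70%) were at least 2-fold below other neurons in every library. Among 1741 genes chosen instead for at least 100 CPM in the other neurons of every library, with no minimum in cholinergic nuclei, the lowest ratios were those of Rgs6, a regulator of G-protein signalling, Chrm3, and Dach1, a transcription factor, none of them over 0.179 times other neurons in any library. Dach1 had 5, 6, 10 and 9 UMIs in the cholinergic nuclei. Of 23 genes of neurotrophin signalling, 20 of them with at least 10 UMIs, 3 were at least 2-fold above and 4 as far below in every library. The counts were 5 and 5 of 28 patterning factors, 20 of them with at least 10 UMIs, and 0 and 2 of 19 neuropeptides, 8 of them with at least 10 UMIs. Among the patterning factors, Meis2 was at 125 to 244 CPM against a mean of 829 CPM in other neurons and Foxp2 at 19.8 to 69.5 CPM against 259 CPM.

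**Figure D1:**
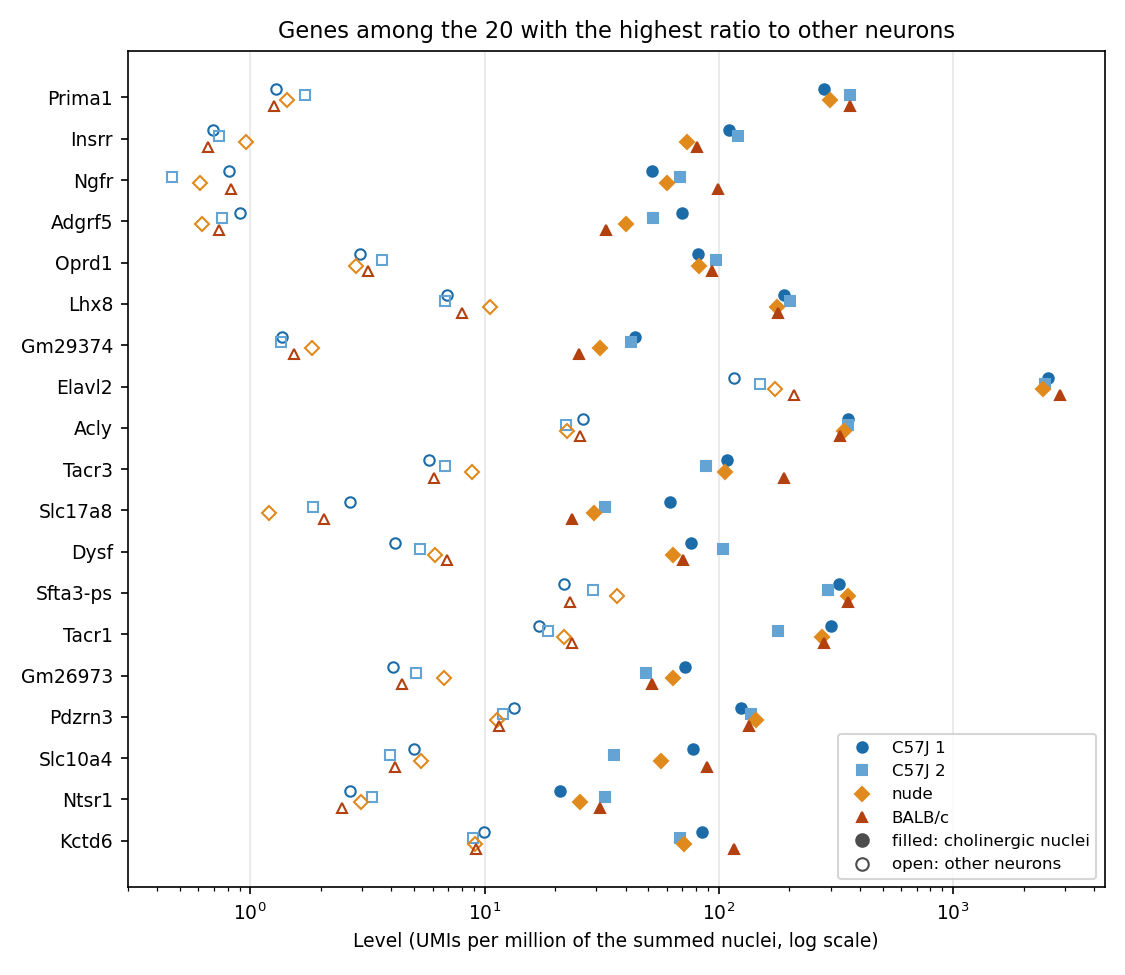
Level of genes among the 20 with the highest ratio to other neurons, in CPM on a log scale, for each library. Filled symbols are the summed cholinergic nuclei and open symbols the summed other neurons of the same library; for each gene the filled symbols lie together and apart from the open ones, by 207-fold or more for Prima1.

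The 199 nuclei were not of a single kind. They were clustered on variable genes centred in each library, without the rule genes and the genes called between backgrounds, and formed 5 clusters of 35, 19, 69, 14 and 62 nuclei, each present in all 4 libraries. A second random seed gave the same clusters and a resolution of 1 gave 7. Differences among the clusters describe what formed them and were not tested.

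Clusters 3 and 5, with 131 nuclei, held most of the UMIs of Ngfr, which was at 120 and 95.4 CPM and in 66.7% and 59.7% of nuclei. Cluster 3 was led by 6330411D24Rik, an uncharacterised transcript, and its leading genes held Cux2, a homeobox factor, at 248 CPM against 50.04 CPM in the remaining nuclei, and Ntsr1, a neurotensin receptor, in 44.9% of nuclei. The leading genes of cluster 5 held Nos1, at 309 CPM and in 83.9% of nuclei against 59.3 CPM elsewhere, and Lgr5, an R-spondin receptor, at 156 CPM against 28.8 CPM. Esr2, the estrogen receptor beta, was found in 40.3% of its nuclei and in 7.25% of those of cluster 3. Prima1 was found in 95.7% and 98.4% of the nuclei of clusters 3 and 5.

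Cluster 4, with 14 nuclei, was led by Megf10, and its leading genes held Slc17a8 at 297 CPM, in 92.9% of nuclei, against 14.9 CPM elsewhere, with Vwc2l, a secreted protein, at 534 CPM and Tshz3, a zinc-finger factor, at 347 CPM. Ngfr had a UMI in 0 of these 14 nuclei, which allows a share of up to 21.4% of nuclei with a UMI (3 counts, counting error only) and sets no limit on nuclei that express it, while Chat was at 424 CPM and Prima1 in 85.7% of nuclei. Unc5d, a netrin receptor, was at 55.0 CPM there and at 1619.5 CPM or more in each other cluster. Cluster 2, with 19 nuclei, was led by Htr2c, a serotonin receptor, at 1880 CPM against 96.6 CPM, and by Gpc5, a glypican, at 6589 CPM against 697 CPM. It held 7, 4, 2 and 6 nuclei of the libraries.

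Cluster 1, with 35 nuclei, went against the label. It was led by Gm41414, Tox and Tafa1, and its 11 LS markers summed to 1631 CPM, against 322 to 505 CPM in the other clusters, with Trpc4 at 668 CPM and Dgkg at 636 CPM. The 10 cholinergic markers outside the rule summed to 414 CPM, against 485, 1154, 913 and 1132 CPM in clusters 2 to 5, so that cluster 2 was nearly as low, and the median nucleus of both clusters held 2 of these markers. Lhx8 was found in 40.0% of the nuclei of cluster 1. Its median nucleus held 2 UMIs of Slc5a7 and 2 of Chat and its median depth was 12600 UMIs, within the 11379 to 13624 UMIs of the other clusters. No program was run here to find nuclei that held RNA of 2 cells, and their part in cluster 1 was not tested. Its share was 15.7%, 20%, 20.4% and 15.6%, so that the backgrounds overlapped. The share and the calls between backgrounds are therefore also given without it.

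**Figure D2:**
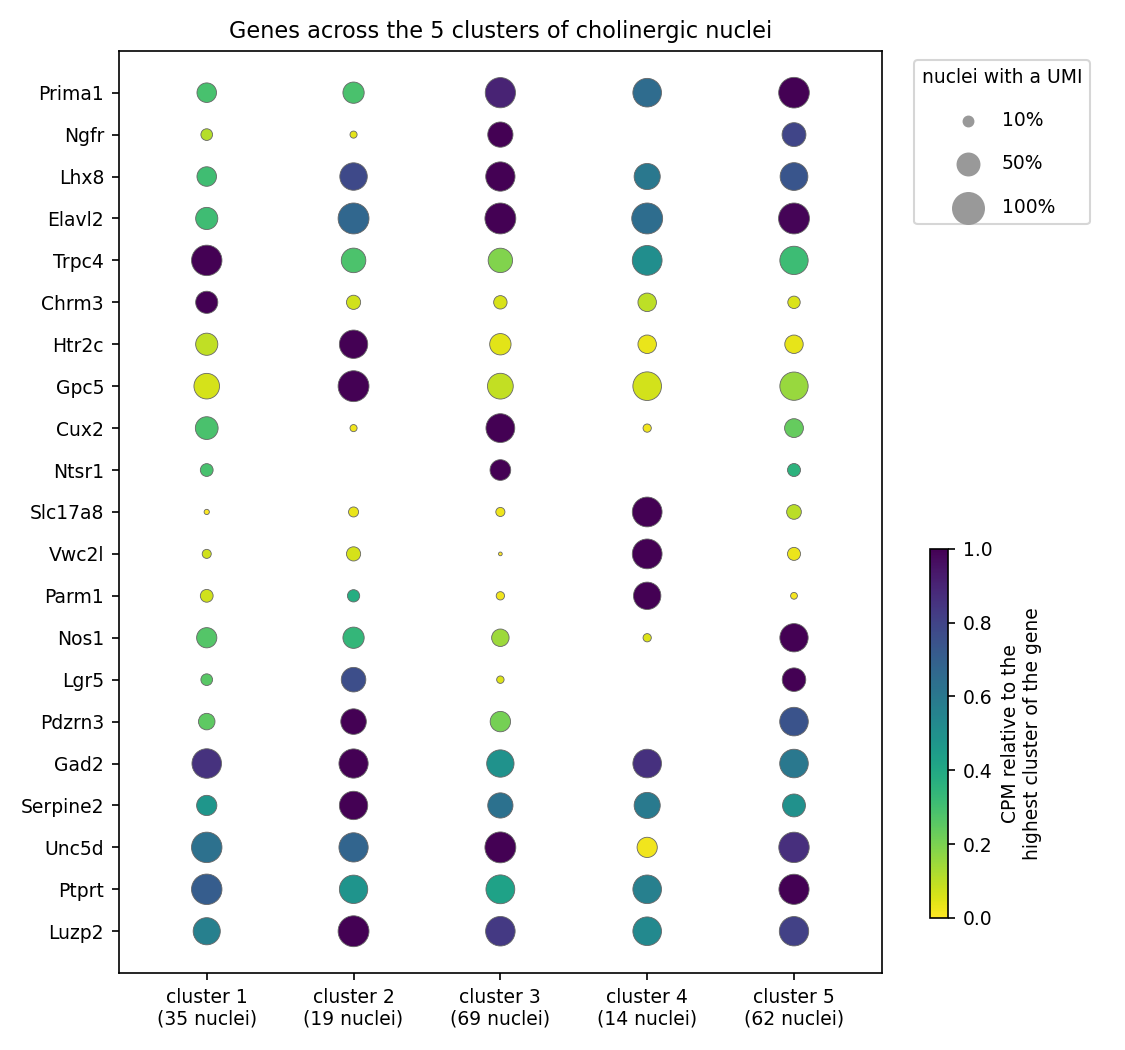
Selected genes (rows) in the 5 clusters of cholinergic nuclei (columns). Dot size is the percentage of nuclei with a UMI and colour the CPM relative to the highest cluster of that gene, on a scale from 0 to 1; Ngfr is found mainly in clusters 3 and 5, Slc17a8 in cluster 4, Nos1 in cluster 5 and Trpc4 is highest in cluster 1.

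The share of cholinergic nuclei among neurons asks whether the backgrounds held different numbers of them. It was 0.448% for C57J 1 and 0.315% for C57J 2, with exact 95% intervals of 0.334% to 0.589% and 0.213% to 0.449%. It was 0.489% for nude mice and 0.748% for BALB/c mice, with intervals of 0.368% to 0.638% and 0.576% to 0.954%, and all intervals cover counting error only. Both libraries of the BALB/c background were above both C57J libraries, with a log2 ratio of 0.70, and the exact two-sided permutation test gave p = 0.33, the smallest value that 2 against 2 libraries allow. Among pairs of libraries from different backgrounds, only the intervals of C57J 2 and BALB/c did not overlap. Without the nuclei of cluster 1 the shares were 0.378%, 0.252%, 0.389% and 0.631% (log2 ratio 0.70). After thinning to 2000 UMIs the shares were 0.191%, 0.0961%, 0.174% and 0.355%, and C57J 1 was then above nude (exact permutation p = 0.667). Shares of other classes were also higher in both libraries of the BALB/c background, at 0.360%, 0.346%, 0.570% and 1.20% for Lhx6 GABAergic neurons and at 1.27%, 1.37%, 1.57% and 2.17% for Crhr2 Dach2 neurons of the LS. Cholinergic nuclei as a percentage of cholinergic and Lhx6 nuclei together went the other way, at 55.4%, 47.6%, 46.2% and 38.3% (log2 ratio −0.29, exact permutation p = 0.33). The part of the dissection in these shares was not tested.

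**Figure D3:**
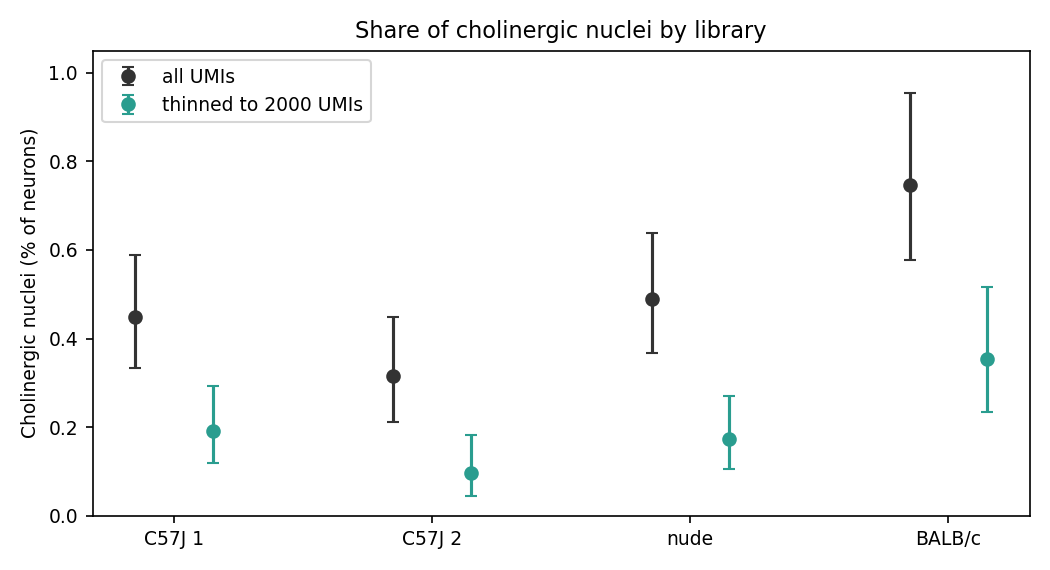
Cholinergic nuclei as a percentage of neurons in each library (vertical axis), from all UMIs (dark) and after thinning every nucleus to 2000 UMIs (green), with exact 95% binomial intervals. BALB/c is the highest and C57J 2 the lowest in both, and C57J 1 and nude change order with thinning.

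Expression within cholinergic nuclei was then compared between the backgrounds, with the UMIs of the nuclei of each library summed, edgeR's quasi-likelihood test and Benjamini-Hochberg adjustment over 7514 genes. Calls needed an adjusted p under 0.05 together with a log2 fold change of more than 0.5 in size. There were 58 calls (0.772%), 24 (0.319%) upward and 34 (0.452%) downward on the BALB/c background, and 57 of the 58 did not overlap between backgrounds. Over all genes the libraries were separated upward in 18.5% and downward in 18.6%. DESeq2 called 7 genes, 2 higher and 5 lower, and leaving out 1 library gave 21 to 79. Of the 58 genes 17 were called without C57J 1, 39 without C57J 2, 28 without nude and 15 without BALB/c. Without the nuclei of cluster 1 edgeR called 19 genes, 17 of them shared with the 58, and 35 with batch as a term, 18 of them shared. Since C57J 1 is the only library of batch 1, the batch term leaves C57J 2 alone against nude and BALB/c, as does leaving out C57J 1, and these are not separate checks.

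Serpine2, a secreted inhibitor of thrombin and other serine proteases (chr1:79794197-79861180, minus strand), was at 230.5, 290.0, 58.5 and 63.1 CPM. Both C57J libraries were far above both others. The log2 fold change was −2.05 (SE 0.21, edgeR adjusted p = 2.65e-09), and it kept its direction under all 15 alternatives and its call under all but the thinning (adjusted p = 0.0652). Luzp2, a leucine-zipper protein (chr7:54835498-55268885, plus strand), was at 912, 896, 428 and 380.4 CPM. It fell by 1.16 on the log2 scale (SE 0.14, edgeR adjusted p = 3.45e-07), and its call was lost with thinning (adjusted p = 0.321). Neither differed to that extent in other neurons of the same libraries, where the log2 fold changes were 0.08 and −0.20.

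Unc5d, a netrin receptor that guides axons and migrating neurons (chr8:28646717-29219636, minus strand), was at 1151, 1255, 2585 and 2510 CPM. The groups did not overlap, and the rise was 1.09 on the log2 scale (SE 0.13, edgeR adjusted p = 5.50e-08). It was called under all 15 alternatives, among which thinning left it the only gene called. Ptprt, a receptor tyrosine phosphatase of synapses (chr2:161521990-162661147, minus strand), was at 323, 368, 775 and 1058 CPM. It rose by 1.44 (SE 0.16, edgeR adjusted p = 2.07e-08), and its call was lost with thinning (adjusted p = 0.25). Unc5d and Ptprt moved by 0.04 and 0.14 in other neurons.

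**Figure D4:**
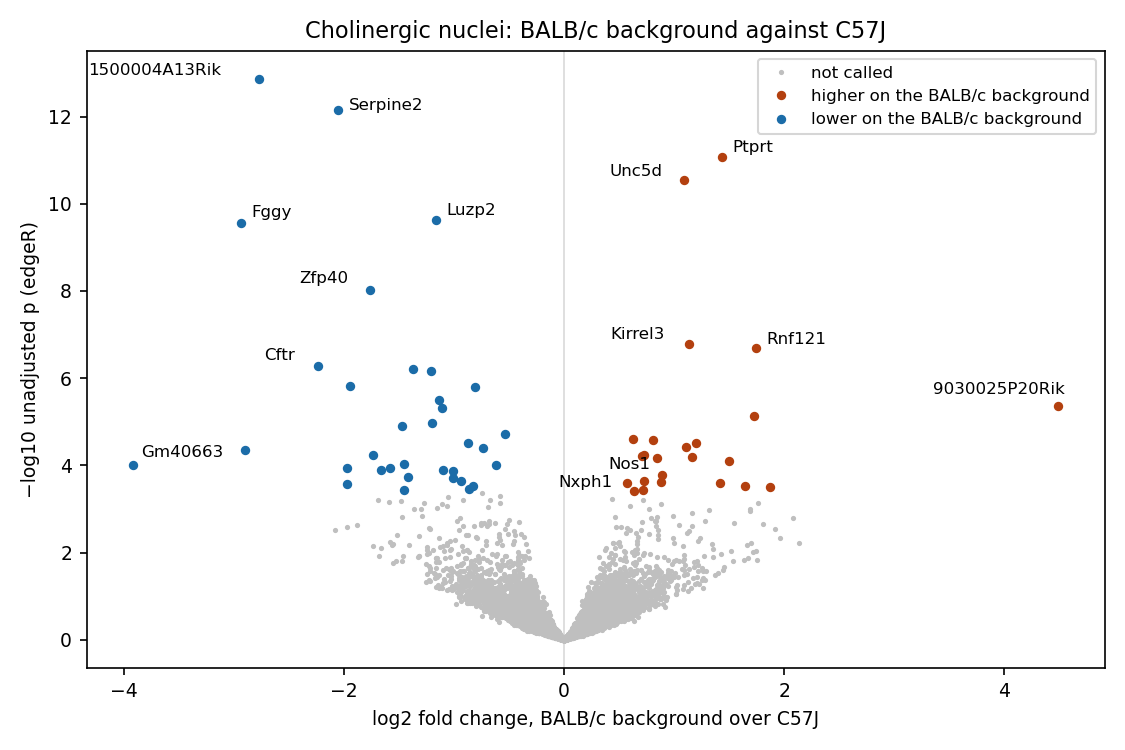
Log2 fold change of the BALB/c background over C57J in summed cholinergic nuclei (horizontal axis) against −log10 of the unadjusted edgeR p (vertical axis), for the 7514 genes tested. Coloured points are the 24 genes called higher and the 34 called lower; Serpine2, Unc5d, Ptprt and Luzp2 are among those with the smallest p.

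The 12 largest falls among called genes without overlap were those of Gm40663, Fggy, Gm12068, 1500004A13Rik, Cftr, Serpine2, Rpl26, Hook2, Mid1, Zfp40, Nfs1 and Parm1, from −3.91 to −1.58 on the log2 scale. Gm40663, a long non-coding RNA, had 20 UMIs in the C57J libraries together and 2 in the others, a ratio of 17.4 (exact 95% interval 4.23 to 154, counting error only). Fggy, a carbohydrate kinase, was at 81.1 and 117 CPM in C57J and at 7.31 and 15.1 CPM in nude and BALB/c. The transcript 1500004A13Rik fell by 2.77 in cholinergic nuclei (edgeR adjusted p = 1.02e-09) and by 3.02 in other neurons. Cftr, a chloride channel, was at 81.1 and 52.1 CPM in C57J and at 21.9 and 10.4 CPM in nude and BALB/c (edgeR adjusted p = 0.000397). It was not called with batch as a term (adjusted p = 0.0603), without C57J 1 (0.127), without BALB/c (0.0738), without cluster 1 (0.104) or with DESeq2. Parm1, a mucin-like membrane protein, was at 60.0, 45.6, 18.3 and 17.9 CPM (edgeR adjusted p = 0.0223), with 247.6 CPM in cluster 4 and at most 94.0 CPM in any other. It was not called with batch as a term (adjusted p = 0.342) or with any 1 of C57J 1, nude and BALB/c left out (0.0934 to 0.421).

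The 12 largest rises were those of 9030025P20Rik, Gm3448, Rnf121, Cfap54, Pnma2, Zfp808, Ptprt, 9530036O11Rik, 9630014M24Rik, Sfi1, Kirrel3 and Zfhx4, from 4.49 to 1.11. The gene 9030025P20Rik had 1 UMI in the C57J libraries together and 46 in the others, a ratio of 26.4 (exact 95% interval 4.51 to 1065, counting error only). It lies 4214 bases from Gm3448 on chromosome 17, which also rose, by 1.87. Rnf121, a ubiquitin ligase of the endoplasmic reticulum, was at 35.7 and 22.8 CPM in C57J and at 98.7 and 108 CPM in nude and BALB/c (edgeR adjusted p = 0.000174). Kirrel3, an adhesion molecule of synapses, was at 227, 147, 501 and 362 CPM and rose by 1.14 (SE 0.19, edgeR adjusted p = 0.000151). Without cluster 1 its log2 fold change was 0.68 (edgeR adjusted p = 0.158) and in clusters 3 and 5 alone 0.55 (adjusted p = 0.314). With at least 3 UMIs of Slc5a7 and Chat together it was 0.93 (edgeR adjusted p = 0.0536), and after thinning 0.87 (adjusted p = 0.565). It was 0.92 without nude and 1.19 with DESeq2 (DESeq2 adjusted p = 0.0563). Kirrel3 was not called in any of these. Zfhx4, a zinc-finger homeobox factor, was at 61.7, 52.1, 106 and 138 CPM, and rose by 1.11 (edgeR adjusted p = 0.0108). It was not called with batch as a term (adjusted p = 0.0646), without C57J 1 (0.0623), without BALB/c (0.562) or with DESeq2. Of 29 named genes that were called, 17 lost their call with batch as a term, 17 without BALB/c, 12 without nude and 23 with DESeq2. Of the 28 that could also be tested without 1 C57J library, 16 lost it without C57J 1 and 6 without C57J 2.

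Several of these genes also differed in the other neurons of the same libraries, where edgeR called 295 of 20383 genes. Cfap54 rose by 1.73 in cholinergic nuclei and 1.77 in other neurons, Rnf121 by 1.75 and 1.25, and Zfp808 by 1.502 and 2.29. Fggy fell by 2.94 in cholinergic nuclei and 2.33 in other neurons, and Zfp40 by 1.76 and 1.14. Reads were aligned to mm10, a genome of the C57BL/6J strain, so that a difference in level and a difference in sequence that affects alignment cannot be told apart. Gm42418, which gathers reads of ribosomal RNA, was at 1883, 2773, 3353 and 3770 CPM and was among the genes called (log2 fold change 0.63, edgeR adjusted p = 0.00835), and the part of RNA quality in the other calls was not tested.

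Of the genes listed by role, Nos1 and Nxph1 were the only ones called. Nos1 (chr5:117781032-117958840, plus strand) was at 90.9, 88.0, 137 and 187 CPM. The groups did not overlap, and the rise was 0.89 (SE 0.22, edgeR adjusted p = 0.0295). With batch as a term it was 0.91 (edgeR adjusted p = 0.193), without BALB/c 0.62 (adjusted p = 0.968), and without cluster 1 0.79 (adjusted p = 0.173). Nos1 kept its call in 4 of 15 alternatives and lost it in 11. Within cluster 5, where Nos1 is concentrated, it was at 197, 224, 303 and 386 CPM. Nxph1, a ligand of neurexins, was at 479, 508, 726 and 734 CPM and rose by 0.58 (edgeR adjusted p = 0.0383). Without cluster 1 it moved by −0.03 (adjusted p = 0.981), and in cluster 1 itself it was at 432 and 252 CPM in C57J and 1409 and 1998 CPM in nude and BALB/c. Nxph1 kept its call in 4 of 15 alternatives, lost it in 9 and reversed in 2.

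Genes of the cholinergic role itself were not called by edgeR, and DESeq2 called none of the genes listed by role. Of the 10 markers outside the rule 7 were tested, 0 were called, 0 were separated upward and 2 downward (28.6% separated, against 37.1% of all genes tested), and their median log2 fold change was 0.03, against −0.00075 over all genes tested. Their number at an unadjusted p under 0.05 was 0. For acetylcholine handling 10 of 16 were tested, 0 were called and 0 had an unadjusted p under 0.05, and the median was −0.13, with values from −0.42 to 0.11. In neurotrophin signalling 18 of 23 were tested with 0 called and a median of 0.07, and among acetylcholine receptors 5 of 19 with 0 called and a median of 0.07. Chrm2 moved by −0.45 (edgeR adjusted p = 0.186). Of the receptors for modulators 17 of 59 were tested, of those for GABA and glutamate 34 of 41, and of the channels 46 of 56, and 0 were called in each, with 4, 7 and 6 at an unadjusted p under 0.05, while neurotrophin signalling and acetylcholine receptors had 1 each. Over all genes tested 625 of 7514 (8.32%) had such a p.

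Among the remaining lists, 6 of 13 genes of a second transmitter were tested, with Nos1 called and a median of −0.17. Slc17a8 was at 61.7, 32.6, 29.3 and 23.5 CPM and Esr2 at 17.9, 0, 31.1 and 23.5 CPM, and neither was called (edgeR adjusted p = 0.365 and 0.569). The 12 of 28 patterning factors that were tested gave 0 calls, 1 unadjusted p under 0.05 and a median of 0.03. Of the neurons' genes that the study names 5 of 12 were tested with 0 called and 2 at an unadjusted p under 0.05. Ndn, an imprinted gene of neurons, was at 29.2, 19.6, 40.2 and 67.8 CPM (edgeR adjusted p = 0.183). In the lists of other cells 2 oligodendrocyte, 3 astrocyte, 1 microglial, 1 precursor, 4 LS and 3 striatal markers could be tested and 0 were called, with 2 oligodendrocyte and 1 striatal marker at an unadjusted p under 0.05. Of 7 markers of GABAergic neurons of the ganglionic eminence 6 were tested, and Nxph1 was called.

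Some called genes lay outside the naming rule and were chosen after their values were seen. They are given as called in the main fit alone. Of the 58 calls, DESeq2 kept 7, leaving out nuclei with glial or vascular UMIs kept 11, and no filter on low counts kept 51. Ivd, a mitochondrial enzyme of leucine breakdown for which the study lists PCR primers, was at 51.9, 52.1, 21.9 and 16.9 CPM, and fell by 1.45 (edgeR adjusted p = 0.0485), and by 1.13 in other neurons. Slit2 and Slit3, ligands of Robo receptors in axon guidance, fell by 0.87 and 0.94 (edgeR adjusted p = 0.00924 and 0.0373), and Nrp2, a receptor for semaphorins, rose by 0.84 (edgeR adjusted p = 0.0154). Nrg1, a ligand of ErbB receptors, was at 1472, 2262, 1161 and 961 CPM (edgeR adjusted p = 0.000843). Kcnmb2, a subunit of calcium-activated potassium channels, was at 206, 244, 344 and 424 CPM (edgeR adjusted p = 0.00835). The called gene whose libraries overlapped was Vwc2l, a leading gene of cluster 4, at 123, 48.9, 62.2 and 9.42 CPM, and cluster 4 held 6, 1, 3 and 4 nuclei in the 4 libraries.

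Whether the difference between backgrounds differed between cholinergic nuclei and other neurons was tested in edgeR. The test was the interaction of class and background, with library as a block. Of 7514 genes 12 were called (0.16%), 4 with a higher and 8 with a lower log2 fold change in cholinergic nuclei than in other neurons. The largest in size was Serpine2, whose difference between the classes was −2.15 (SE 0.23, edgeR adjusted p = 0.000112), with other neurons at 92.6, 72.9, 71.4 and 104 CPM. In C57J cholinergic nuclei stood above other neurons, and on the BALB/c background below them. The difference was 1.07 for Unc5d and 1.29 for Ptprt (SE 0.14 and 0.17, edgeR adjusted p = 0.00093 for both), and −0.96 for Luzp2 (SE 0.15, edgeR adjusted p = 0.00696). For Parm1 it was −1.92 (SE 0.34), for Klhl1, an actin-binding protein of neurons, 0.90, for Ntng1, a netrin-G axon molecule, −0.99, and for Tmtc2, a protein of the endoplasmic reticulum, −0.85, each with an edgeR adjusted p of 0.0251. Zfhx4 was the remaining gene with a higher log2 fold change in cholinergic nuclei, by 1.11 (edgeR adjusted p = 0.0451). Part of such a difference can lie in other neurons. Cholinergic nuclei and other neurons moved by −0.42 and 0.43 for Tmtc2, −0.75 and 0.22 for Ntng1 and −0.68 and 0.33 for Ptchd4. For Serpine2, Unc5d and Ptprt other neurons moved by 0.08, 0.04 and 0.14. Of the 12 genes 7 were called without C57J 1, 8 without BALB/c, 9 without the nuclei of cluster 1 and 7 in clusters 3 and 5 alone. In edgeR the calls of Parm1 and Zfhx4 were lost without either library (adjusted p = 0.252 and 0.105 without C57J 1, 0.234 and 0.30 without BALB/c), that of Tmtc2 without C57J 1 (adjusted p = 0.0987) and that of Klhl1 without BALB/c (adjusted p = 0.112). Ntng1 was not called without cluster 1 (edgeR adjusted p = 0.506), nor were Ntng1, Parm1 and Tmtc2 in clusters 3 and 5 (adjusted p = 0.437, 0.964 and 0.88).

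Against Lhx6 GABAergic neurons, a class of 240 nuclei from the same libraries, 5 genes were called, of which 3 were among these 12. Serpine2 differed by −2.21 (edgeR adjusted p = 0.0029), Ptprt by 1.39 and Unc5d by 1.21 (adjusted p = 0.0261 for both). Luzp2 differed by −0.75 and was not called (adjusted p = 0.416). Ntng1 and Tmtc2 were not called between the backgrounds in cholinergic nuclei alone, where they stood at 187, 209, 104 and 124 CPM and at 523, 368, 280 and 387 CPM. The log2 difference of Tmtc2 between backgrounds was −0.42 there and 0.15 in clusters 3 and 5 alone.

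**Figure D5:**
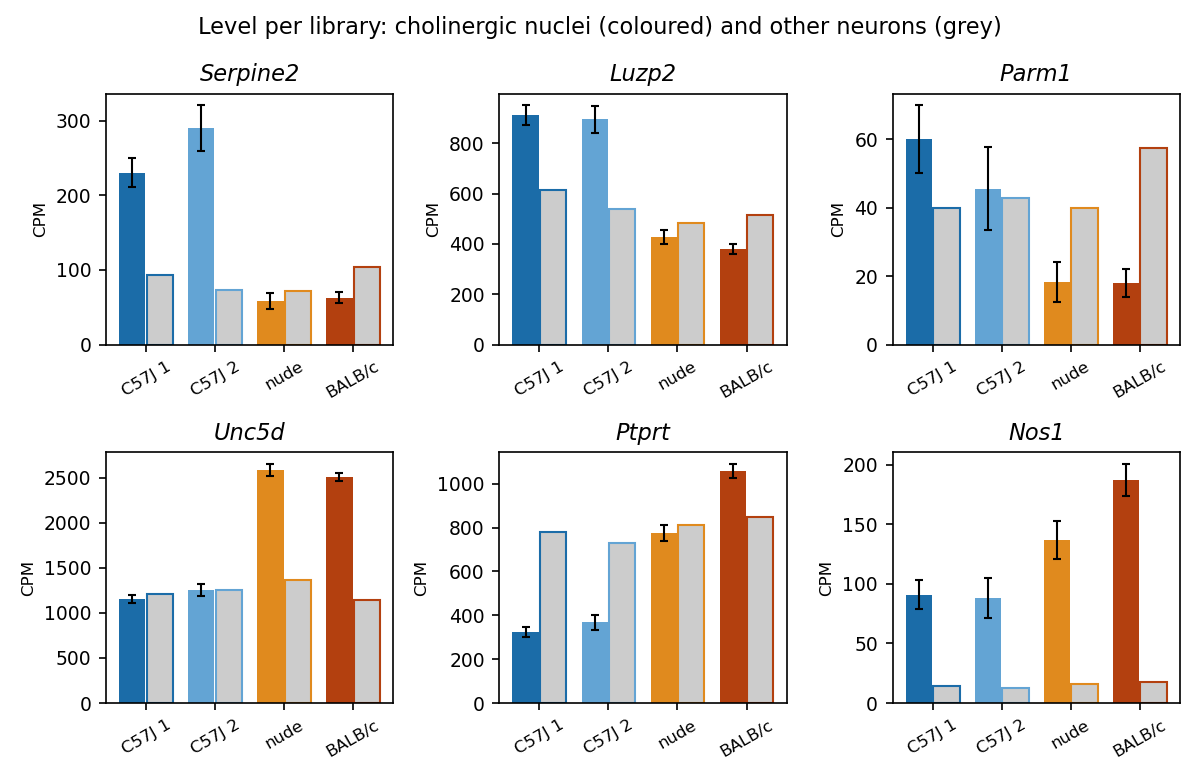
CPM of 6 genes in each library, in summed cholinergic nuclei (coloured bars, with error bars of 1 Poisson SD of the UMI count) and in other neurons (grey bars). Serpine2, Luzp2 and Parm1 are lower and Unc5d, Ptprt and Nos1 higher in the cholinergic nuclei of nude and BALB/c mice than in both C57J libraries.

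Serpine2, Unc5d, Ptprt and Luzp2, the 4 genes with the smallest p of the interaction, were seen in many nuclei, since the nucleus with the most UMIs held 4.85% of those of Serpine2 and 3.12% to 3.53% of those of the other genes. They were also compared within the largest clusters, as values only. In cluster 3 Serpine2 was at 264, 289, 37.7 and 83.9 CPM, and in cluster 5 at 246, 302, 56.4 and 27.2 CPM. Unc5d was at 1669, 1820, 3474 and 2824 CPM in cluster 3 and at 1113, 974, 2370 and 2985 CPM in cluster 5. Ptprt was at 157, 178, 425.5 and 710.5 CPM in cluster 3 and at 289, 331, 1339 and 1513 CPM in cluster 5, and Luzp2 at 1063, 1054, 355.5 and 422 CPM in cluster 3 and at 1089, 877, 513 and 375 CPM in cluster 5. In each of these the C57J libraries lay apart from the others. A fit on clusters 3 and 5 alone called 29 genes, 19 of them shared with the 58, and gave −2.35 for Serpine2, 2.13 for Ptprt, 1.06 for Unc5d and −1.29 for Luzp2 (edgeR adjusted p = 2.62e-06, 6.14e-08, 2.62e-06 and 3.41e-06).

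Nude and BALB/c mice each had 1 library, so no difference between them was tested. Relative to the mean of the C57J libraries Serpine2 stood at 0.225 times in nude and 0.242 times in BALB/c, Luzp2 at 0.473 and 0.421 times, and Unc5d at 2.15 and 2.09 times. Ptprt stood at 2.24 times in nude and 3.06 times in BALB/c, and Nos1 at 1.53 and 2.09 times.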

How the data were processed

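Each library was deposited as a matrix of UMI counts, not normalized, which per the submitters' processing notes rests on Cell Ranger 7.0.1 and mm10. The study removed predicted doublets after that step. Whether intronic reads were counted was not given in the sources used here. Library totals were 102939576, 72912922, 82169638 and 125998527 UMIs for C57J 1, C57J 2, nude and BALB/c. Libraries follow the labels, and the members and gene lists were chosen with earlier results of these data known. No program for doublets was run here. Neurons held at least 3 UMIs of Snap25, Syt1 and Rbfox3 together and fewer than 3 of St18, and oligodendrocytes at least 3 of St18, at least 1 of Mog and fewer than 3 of the neuronal genes. Counts were summed per library and tested with edgeR 4.0.16 (filterByExpr, TMM, R 4.3.3), and DESeq2 1.42.0 was an alternative. The edgeR test was also run on counts simulated from the means and dispersion of these data. Those counts held no batch effect and no difference between nude and BALB/c, so they do not check the test for either. Nuclei were clustered with scanpy 1.11.5 on 15 components of 1000 variable genes at a resolution of 0.5. Positions are those of GENCODE vM21 (GRCm38). The named genes were the 12 largest rises and 12 largest falls among called genes without overlap, up to 5 interaction genes per direction, the 20 highest ratios, listed genes that were called and listed genes described for their role. The alternatives cover the test, scaling, filters, batch, depth, member rule, other cells and each library. Some genes that these rules and lists hold are not reported here.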

Additional observations from a re-analysis of the deposited data

Results flagged for a closer look

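The 12 genes whose difference between backgrounds differed between cholinergic nuclei and other neurons, tested as an interaction in edgeR, are given here for a closer look. The difference of log2 fold changes was −2.15 for Serpine2, 1.07 for Unc5d, 1.29 for Ptprt, −0.96 for Luzp2, −0.99 for Ntng1, −1.92 for Parm1, −0.85 for Tmtc2, 0.90 for Klhl1, −0.995 for Fgf13, −1.02 for Ptchd4, −1.01 for Sox5 and 1.11 for Zfhx4. In BALB/c 8 nuclei met the rule on genes but held more than 6000 genes, against 0 in the other libraries, and were left out.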

How the results depend on the processing

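Against 58 genes called between backgrounds, there were 35 with batch as a term (18 of them among the 58), 24 with at least 3 UMIs of Slc5a7 and Chat together, 11 without nuclei that held glial or vascular UMIs, 1 of 2153 tested after thinning to 2000 UMIs and 7 with DESeq2. Alternatives chosen after seeing the data gave 27 with no upper limit on genes, 19 without cluster 1 and 29 in clusters 3 and 5 alone. Leaving out 1 library gave 21 (without BALB/c) to 79 (without C57J 2), with 35 without C57J 1 and 31 without nude. Other scaling, no filter and the adjusted p alone gave 54, 75 and 58. With 1 library left out the lone sample is assumed to vary like the others. The interaction's 12 genes became 30 without a filter, 5 against Lhx6 neurons and 24 to 54 with 1 library left out, with 7 to 12 of the 12 among them, and, chosen after seeing the data, 22 without cluster 1 and 23 in clusters 3 and 5. Of 31 named genes, Tmtc2 reversed in clusters 3 and 5 (0.15), as did Nxph1 there (−0.13) and without cluster 1 (−0.034). The log2 ratio of the share among neurons, 0.70, ran from 0.36 to 0.97 with 1 library left out and was 0.88 after thinning and 0.70 without cluster 1. The number of genes 2-fold above other neurons was 182, and 112 after thinning, and a resolution of 1 gave 7 clusters. The causes were not tested. Depth limits genes with few UMIs, since 7514 genes could be tested. No pairing of libraries between backgrounds was possible because the groups compared share fewer than 2 replicate numbers in the labels. The interaction compared cholinergic nuclei with other neurons within each library.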
